A study of Homo sapiens with 2 samples.

Results

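Axon guidance ligands and receptors were taken as the autosomal genes whose symbols belong to the semaphorins, plexins, neuropilins, ephrins, Eph receptors, netrins, DCC and UNC5 receptors, slits and ROBO receptors. The annotation in the deposited methylation table held 65 such genes among 31235 autosomal genes. Of their CpGs, 13504 were covered by 10 or more reads in each library, out of 2458266 autosomal CpGs so covered, intergenic ones included. Of these CpGs, 2443 lay in a promoter of a guidance gene, 10866 in a gene body (exons, introns or UTRs outside the gene's own promoter) and 195 in flanks of 12 genes. The X-linked genes PLXNA3, PLXNB3 and EFNB1, and EPHA10, whose symbol has a longer number, fell outside this choice. The genes were taken by symbol, with no threshold on methylation, but with earlier results of these data known.

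The study exposed SH-SY5Y cells to Mdivi-1, a small molecule described as an inhibitor of mitochondrial fission, and compared them with cells given the solvent DMSO. SH-SY5Y is an established human neuroblastoma line with neuron-like properties, so both groups are this 1 cell line and differ, as labelled, only in the agent. Dose and exposure time are not given in the sources used here. Each group held 1 library of genomic DNA from a hybridization capture for bisulfite sequencing, a method that reads unmethylated cytosines as thymine over chosen regions of the genome. With 1 library a group there was no replicate check, and every test here compares the 2 libraries, not the conditions. The series also has RNA sequencing, which was not analysed here, so no expression level stands beside these methylation levels. Mean coverage over the guidance CpGs was 38.8 reads in the control library and 48.2 in the Mdivi-1 library. Promoters of 12 adrenergic neuroblastoma marker genes had a median control methylation of 6.62%, with GATA3 and HAND2 among those near 1% or 2%, whereas the epithelial genes EPCAM and KRT19 stood at 90.3% and 81.0%.

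Growing axons steer by cues that other cells secrete or display. Semaphorins act through plexins, with neuropilins as co-receptors for most secreted class 3 members; ephrins are bound by Eph receptor tyrosine kinases and can signal back into the cell that carries them; netrins act through DCC and the UNC5 receptors; slits act through ROBO receptors. Many of these genes have a CpG-rich promoter, a kind of sequence that is usually unmethylated when a gene can be used, while transcribed gene bodies are often methylated. In neuroblastoma, guidance genes have been studied for their parts in cell migration and differentiation.

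The sequence ahead of the start sites was read for 56 of the 65 genes from RefSeq on GRCh38.p14, as the 250 bases before each of 88 annotated starts. The letters CG, the same on both strands, occurred in 88 of these 88 windows, with a median of 17.5, beside 93.9% of 35116 windows over all genes, with a median of 11. The deposited positions are on hg19, so they were tied to a window only where the spacing of measured CpGs matched that of the CGs in the sequence, which placed 408 CpGs on 36 windows of 28 genes. All 18 pairs of placed windows within 1 Mb of each other had the same offset between builds to within 1 base. Shown first are the windows of EPHB3 (chr3:184561535-184561784, plus strand) and EFNA4 (chr1:155063490-155063739, plus strand), a receptor and a ligand start whose CpGs were almost unmethylated. Next are SEMA3E (chr7:83649140-83649389, minus strand) and SEMA4G (chr10:100972279-100972528, plus strand), which have few CpGs and were almost fully methylated. Last are a pair of starts each of SEMA6D (chr15:47183839-47184088 and chr15:47717255-47717504, plus strand) and ROBO3 (chr11:124865182-124865431 and chr11:124875932-124876181, plus strand), where the mean over measured CpGs differed between the windows of 1 gene. All are GRCh38.p14, 5′ to 3′ on the gene's strand and ending at the base before the start, and the capitals mark the CpGs that carried a measured value.
EPHB3: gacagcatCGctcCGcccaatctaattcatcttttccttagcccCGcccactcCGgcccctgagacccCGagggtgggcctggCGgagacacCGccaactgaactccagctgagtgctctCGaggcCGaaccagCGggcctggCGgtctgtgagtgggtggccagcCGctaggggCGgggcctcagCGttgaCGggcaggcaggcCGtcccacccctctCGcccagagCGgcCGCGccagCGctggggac
EFNA4: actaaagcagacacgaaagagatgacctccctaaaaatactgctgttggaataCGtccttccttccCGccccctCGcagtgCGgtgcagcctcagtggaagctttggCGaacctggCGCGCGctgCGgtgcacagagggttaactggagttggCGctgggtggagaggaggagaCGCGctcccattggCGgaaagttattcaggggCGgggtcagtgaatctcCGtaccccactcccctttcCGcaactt
SEMA3E: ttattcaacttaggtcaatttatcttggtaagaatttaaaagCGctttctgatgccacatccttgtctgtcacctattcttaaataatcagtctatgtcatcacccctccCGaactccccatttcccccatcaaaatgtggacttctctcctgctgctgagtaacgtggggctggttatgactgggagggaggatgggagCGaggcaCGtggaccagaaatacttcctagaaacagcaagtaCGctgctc
SEMA4G: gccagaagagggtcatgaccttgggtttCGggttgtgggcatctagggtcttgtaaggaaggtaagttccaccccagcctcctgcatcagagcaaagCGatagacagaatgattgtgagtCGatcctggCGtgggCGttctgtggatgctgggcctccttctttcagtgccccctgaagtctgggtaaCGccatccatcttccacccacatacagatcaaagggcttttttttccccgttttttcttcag
SEMA6D, upstream start: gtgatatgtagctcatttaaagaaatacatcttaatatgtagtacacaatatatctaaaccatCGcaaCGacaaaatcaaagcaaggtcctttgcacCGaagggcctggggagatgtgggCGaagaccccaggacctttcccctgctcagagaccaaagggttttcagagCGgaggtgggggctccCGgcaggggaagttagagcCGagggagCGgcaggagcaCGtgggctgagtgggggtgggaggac
SEMA6D, downstream start: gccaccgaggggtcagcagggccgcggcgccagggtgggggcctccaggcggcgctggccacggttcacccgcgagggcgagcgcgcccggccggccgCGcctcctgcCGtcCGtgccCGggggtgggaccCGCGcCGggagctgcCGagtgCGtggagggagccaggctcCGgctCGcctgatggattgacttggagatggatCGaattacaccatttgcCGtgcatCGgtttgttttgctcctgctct
ROBO3, upstream start: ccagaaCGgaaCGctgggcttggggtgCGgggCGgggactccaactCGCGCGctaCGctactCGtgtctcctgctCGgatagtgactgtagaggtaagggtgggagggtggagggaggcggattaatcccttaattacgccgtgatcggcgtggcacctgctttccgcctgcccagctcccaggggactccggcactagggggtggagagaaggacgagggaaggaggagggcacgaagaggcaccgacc
ROBO3, downstream start: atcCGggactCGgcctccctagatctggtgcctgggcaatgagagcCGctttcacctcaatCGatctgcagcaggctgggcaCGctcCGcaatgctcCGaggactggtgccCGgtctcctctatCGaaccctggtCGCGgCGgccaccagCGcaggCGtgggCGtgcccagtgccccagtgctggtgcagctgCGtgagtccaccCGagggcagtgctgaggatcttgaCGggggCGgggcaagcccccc

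All 21 CpGs of the EPHB3 window were measured, with a mean of 0.164% in the control library and 1.33% in the Mdivi-1 library, and no control CpG above 3.45%. EPHB3 encodes an Eph receptor of the B class, which binds mainly transmembrane ephrins. In EFNA4, a membrane-anchored ephrin of the A class, the 16 CpGs placed of 17 averaged 0.689% and 1.24%. The other 79 CpGs of the EFNA4 promoter as annotated stood at 62.8% and 62.4%, so the promoter mean of 52.3% in the control library joined an unmethylated stretch at the start with a methylated one farther away. The 5 CpGs placed of the 6 in the SEMA3E window lay between 86.7% and 100% in the control library. Their mean was 95.6% in the control library and 96.0% in the Mdivi-1 library. In SEMA4G, a transmembrane semaphorin, 6 of 7 CpGs averaged 89.5% and 90.9%.

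The SEMA6D windows differed in their means, and levels also differed within 1 window. SEMA6D is a transmembrane semaphorin that binds plexins of the A class. Along the upstream window the 4 CpGs from 187 to 130 bases before the start were at 71.4% to 97.4% in the control library, the next, at 80 bases, was at 40.0%, and the 4 from 64 to 26 bases were at 0% to 5.88%. The Mdivi-1 library showed the same fall along the sequence, from 85.0% to 97.4% at the far 4 CpGs down to 0% to 18.2% at the near 4. At the downstream start the 14 measured CpGs of 29 averaged 0.183% and 0.286%. ROBO3, a divergent receptor of the ROBO family that acts in midline crossing, had 10 measured CpGs of 20 at the upstream start, all at the far end of the window, with a mean of 52.0% in the control library and 59.3% in the Mdivi-1 library. At the downstream start all 19 CpGs were measured and averaged 8.38% and 5.41%, so unlike parts of the windows were measured. These ROBO3 windows gave the highest and the lowest difference of the 36. The difference of 7.26 points had a counting error of 3.79 if CpGs are taken as independent and 12.6 if all CpGs of a window share the same reads, and the difference of -2.97 points had errors of 1.38 and 6.84.

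Of the 36 placed windows, 27 were under 10% in the control library, 5 between 10% and 50% and 4 above 50%, with a median of 2.0%. The windows above 50% belonged to SEMA3E, SEMA4G, EPHA1 and the upstream start of ROBO3. Windows under 10% held 9 to 39 CGs (median 17) and those above 50% held 6 to 20 (median 12). In 31 genes with 1 RefSeq start and no gap over 2 kb among promoter CpGs, the order of medians by annotated promoter mean was the opposite. The 5 genes above 50% had 14 to 46 CGs (median 33), and the 15 under 10% had 13 to 41 (median 27). Such a promoter mean can rest on CpGs outside the window. In 27 genes at least 5 further promoter CpGs lay outside the placed windows, and these were more methylated than the window in 18 genes and less in 9, with medians of 19.0% outside and 1.97% inside. In SEMA3C, a secreted semaphorin, 31 placed CpGs averaged 1.97% and the other 36 stood at 57.5%. SEMA7A, the membrane-anchored semaphorin, had 1.97% in the window and 54.6% outside, and ROBO1 had 1.28% and 60.6%. The order was reversed in EPHA1 (54.6% inside, 15.3% outside) and ROBO4 (35.2% and 11.5%). A promoter mean as used below therefore averages over stretches that can differ by more than 50 points.

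Promoter levels covered nearly the whole scale in both libraries. The promoter level of a gene was the mean over its annotated promoter CpGs and was used where at least 5 were measured, which left 63 genes with 6 to 114 CpGs (median 33). SEMA3D, with 4 CpGs at 93.7% and 93.4%, was below the minimum. So was EPHB2, whose 3 promoter CpGs had no methylated read among 44 in the control library and 46 in the Mdivi-1 library, counted once per CpG. If these counts were independent, they would allow a level of up to 6.82% and 6.52% (3 counts of the total, counting error only). The 3 CpGs lie within 23 bp at mean coverages of 14.7 and 15.3 reads, so they may share reads, and the levels allowed are then higher. The median control level over the 63 genes was 19.7%, beside 18.4% over 22658 promoters of all autosomal genes. Levels under 10% were found for 19 of the 63 genes (30.2%, beside 36.8% of all promoters) and levels above 50% for 9 (14.3%, beside 22.7%).

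Among the ligands, the control median was 24.8% over 33 promoters. The semaphorins, the largest family, had a median of 26.8% over 19 promoters, and ranged from SEMA4F, a transmembrane semaphorin, at 7.56% to SEMA3E, a secreted ligand of PLXND1, at 89.0%. Only SEMA4F and SEMA6C were under 10% among them in the control library, whereas SEMA4D, SEMA5A, SEMA4G and SEMA3E were above 50%. The ephrins had a median of 8.19%, with EFNA5 at 1.33% and EFNB2 at 1.70% at the low end. EFNA4, at 52.3%, was the only ephrin promoter above 14%, through the distant stretch described above. The netrins spread widely, from NTN3 at 1.62% through NTN4 at 19.7% and NTN1, the classical long-range cue, at 26.6% to NTN5 at 80.7%. SLIT3 had the lowest promoter of the whole set, 0.922% and, in the Mdivi-1 library, 1.01%, each the mean of 30 CpGs, while SLIT2 stood at 8.85% and SLIT1 at 39.6%.

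Among the receptors, the control median was 16.2% over 30 promoters. Plexins, which transmit semaphorin signals to small GTPases, held both extremes: PLXNA2 stood at 1.17% and PLXNA1 at 91.7% in the control library, and at 0.990% and 91.9% in the Mdivi-1 library. The 13 PLXNA1 promoter CpGs all lay in a CpG island shore. None was placed on its RefSeq window, which holds 46 CGs, so the level of that window was not read. PLXNB1, a receptor for SEMA4D, was the other plexin above 80%, at 86.7%. Both neuropilin promoters were under 10%, NRP1 at 4.78% and NRP2 at 8.79%. The Eph receptors had a median of 15.5%, lower in the B class (4.13% over 4 promoters) than in the A class (22.5% over 8). EPHB4, known for its part in blood vessel formation, was the lowest at 2.26% and EPHA8 the highest at 51.7%. UNC5C, at 1.36%, and UNC5D, at 26.2%, bounded the netrin receptors, with DCC at 10.9%. The ROBO promoter means lay close together, from 15.9% in ROBO2 to 23.4% in ROBO4, the member linked to endothelial cells. Those of ROBO1, ROBO2 and ROBO3 joined separate stretches of unlike control levels, such as 77.4% and 1.47% in ROBO2.

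**Figure D1:**
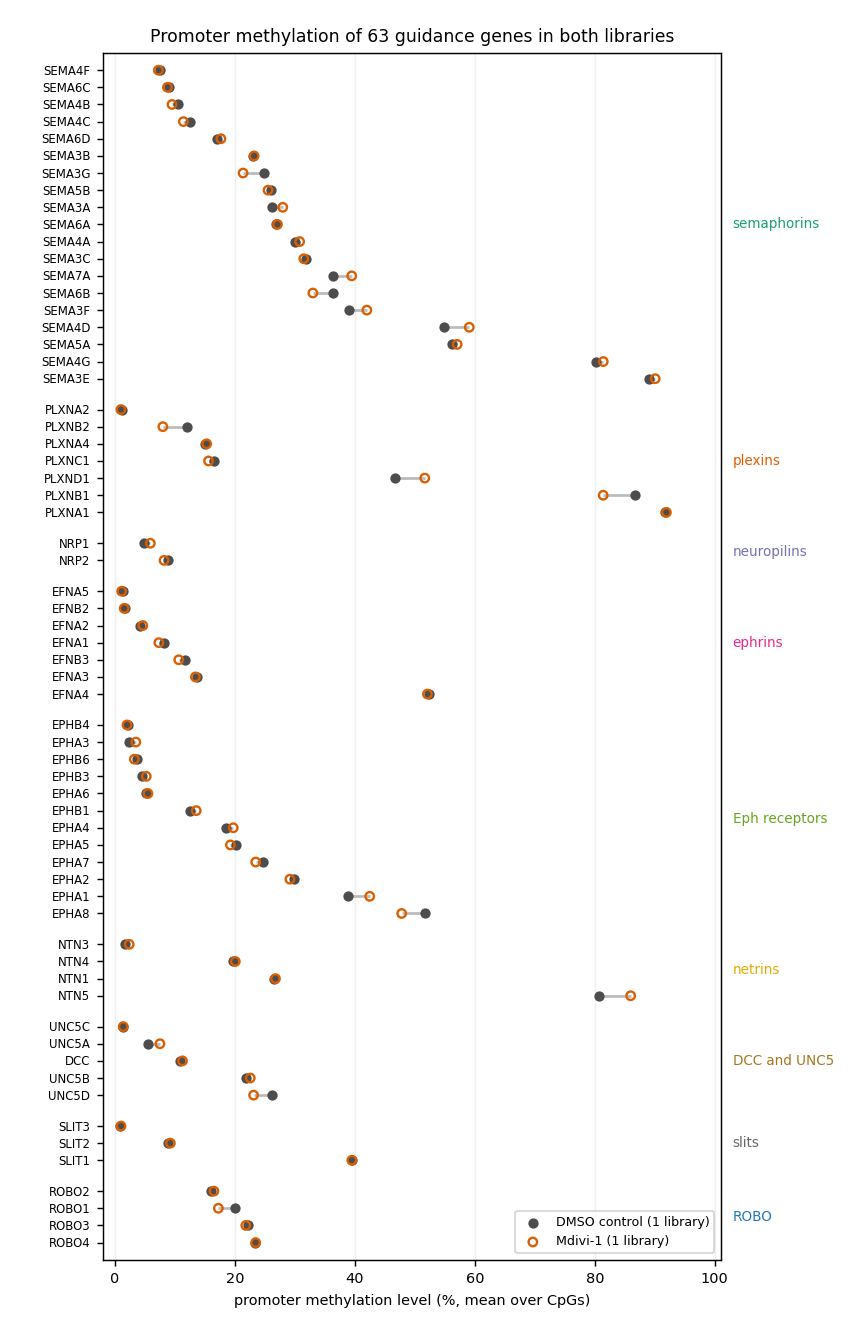
Promoter methylation (horizontal axis, percent, mean over CpGs) of 63 guidance genes, 1 row a gene, grouped by family and ordered by control level; filled grey points are the DMSO control library and open orange points the Mdivi-1 library. The 2 points of a gene mostly overlap, and the genes run from SLIT3 at 0.922% to PLXNA1 at 91.7% in the control library.

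In several genes the annotated promoter CpGs fell into separate stretches with unlike levels. Promoter CpGs were split wherever neighbours lay more than 2 kb from each other, a division chosen after the data were seen. EPHA6, an Eph receptor of the A class, had 90 CpGs at 1.34% in the control library and 1.81% in the Mdivi-1 library at hg19 chr3:96532007-96533219. Its 4 CpGs at chr3:97157844-97158367, 625 kb downstream, were at 91.3% and 88.4%. The matching pair of RefSeq windows on GRCh38.p14, also 625 kb apart, held 26 CGs at the low start and 1 at the high start, so these stretches were read as separate starts. In ROBO2, a slit receptor, the order along the chromosome was opposite: 12 CpGs at chr3:75955070-75955813 stood at 77.4% and 81.1%, and 51 CpGs at chr3:77087607-77088734, 1133 kb farther on, at 1.47% and 1.3%. The ROBO2 spacing did not match the pair of RefSeq starts read here, which lie 729 kb apart. SEMA6D had 45.0% and 46.3% over 9 CpGs upstream and 7.91% and 8.46% over 28 CpGs 533 kb downstream, a spacing that RefSeq starts share. ROBO1 had 1.79% and 0.622% over 7 CpGs, and 30.6% and 26.9% over 12 CpGs in a stretch 749 kb away. In ROBO1 this was no difference between starts: the placed windows of both starts were under 3% in the control library (2.09% and 0.595%), and the methylated CpGs lay outside them. Unlike stretches were also seen in SEMA5B (65.2% and 7.03% in the control library), whose spacing was within 2 kb of that of a RefSeq pair. They were seen as well in SEMA3F (7.42% and 72.0%), SEMA4D (89.8% and 34.8%), UNC5D (35.8% and 1.51%) and PLXNA4 (11.2% and 53.0%), where no such match was made and the stretches are not shown to be separate starts. The pattern of high and low stretches was shared by both libraries in each of these genes.

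**Figure D2:**
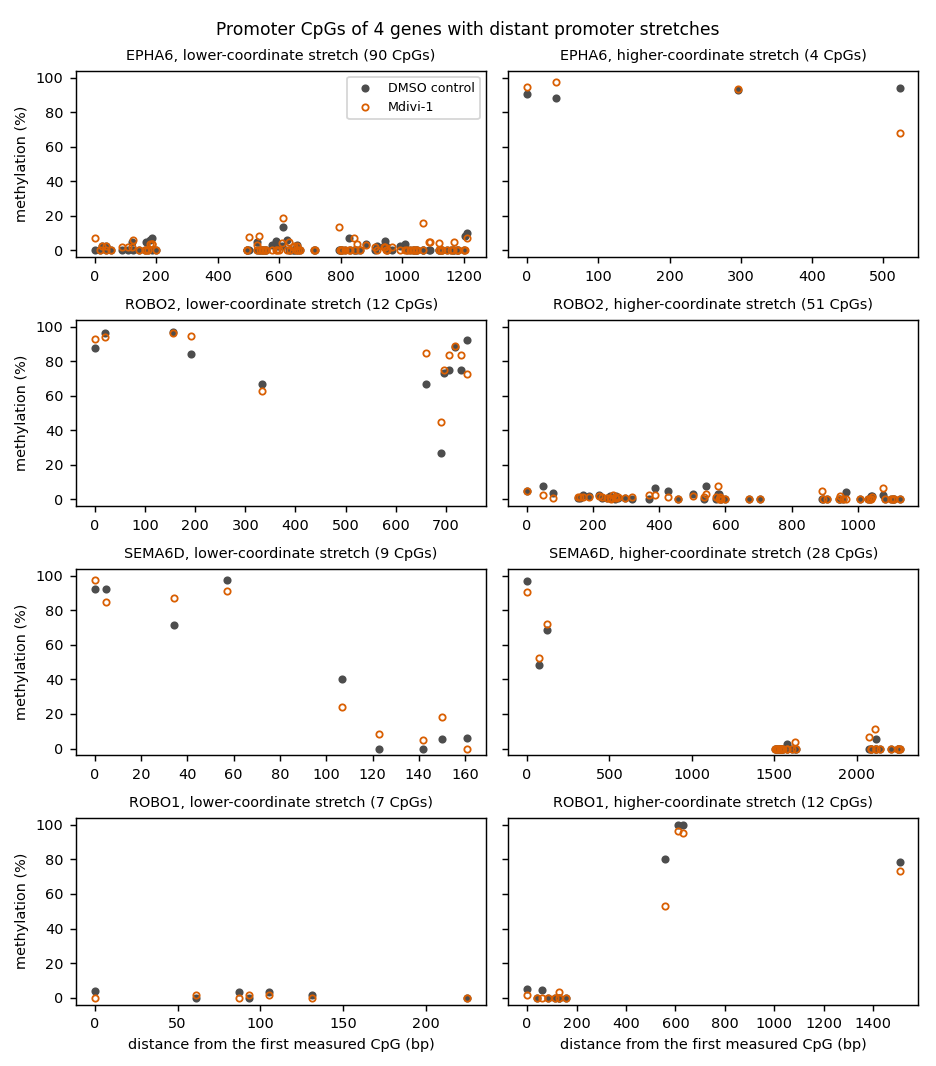
Single promoter CpGs of EPHA6, ROBO2, SEMA6D and ROBO1 (1 row a gene) in the stretch at lower coordinates (left) and higher coordinates (right); the horizontal axis is the distance in bp from the first measured CpG and the vertical axis methylation in percent, with filled grey points for the control library and open orange points for the Mdivi-1 library. EPHA6 goes from 1.34% on the left to 91.3% on the right in the control library, ROBO2 from 77.4% to 1.47%, and the higher stretch of ROBO1 holds CpGs of both kinds.

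CpG islands, the dense CpG stretches marked in the deposited annotation, were less methylated than the shores beside them in most guidance promoters. In 33 genes both had at least 5 measured CpGs, and the shore was higher in 26 of them and lower in 7, with control medians of 2.89% in islands and 25.2% in shores. The same order held over all genes, whose promoter CpGs averaged 13.6% in islands and 33.4% in shores in the control library. Over the guidance promoter CpGs these means were 11.5% and 25.8%. The largest gaps were in SEMA3C (1.90% in the island and 83.3% in the shore), EPHA7 (2.56% and 65.5%) and PLXNA4 (3.37% and 65.5%). EPHA5, SEMA5A and EPHA8 went the other way: the island part stood at 58.0%, 79.0% and 60.0%, and the shore at 3.32%, 47.0% and 24.2%. Some of these CpGs count for more than 1 gene, since 50% of the SEMA5A promoter CpGs and 33.3% of those of EPHA5 are also annotated to a promoter of a gene outside the set.

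Gene bodies were more methylated than promoters. Body levels rested on 14 to 629 CpGs a gene (median 164) and had a control median of 48.1%, beside 39.9% over 21821 bodies of all autosomal genes. The body lay above the promoter in 53 of 63 genes, and the median of the bodies was above that of the promoters in 9 of 9 families. The widest family gap was in the neuropilins, with 6.79% at promoters and 57.7% in bodies. Netrin receptors had the lowest body median, 24.9%. Single genes ranged from EPHA3 at 4.98% to SEMA3D at 93.9%, and PLXNB2, with 629 CpGs at 90.2% and a promoter at 11.9%, had both kinds of level in full contrast. EFNA4 and SEMA5A were among the 10 genes with the promoter above the body, at 52.3% against 16.7% and 56.2% against 20.7%. Across the 63 genes promoter and body levels had a Pearson correlation of 0.356 (Spearman 0.148) in the control library, and across 19015 genes of all kinds 0.432; genes share the library and the capture design and are not independent replicates. In 3′ UTRs the guidance CpGs averaged 79.1% and in 5′ UTRs 13.9%, beside 66.6% and 15.7% over all genes.

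**Figure D3:**
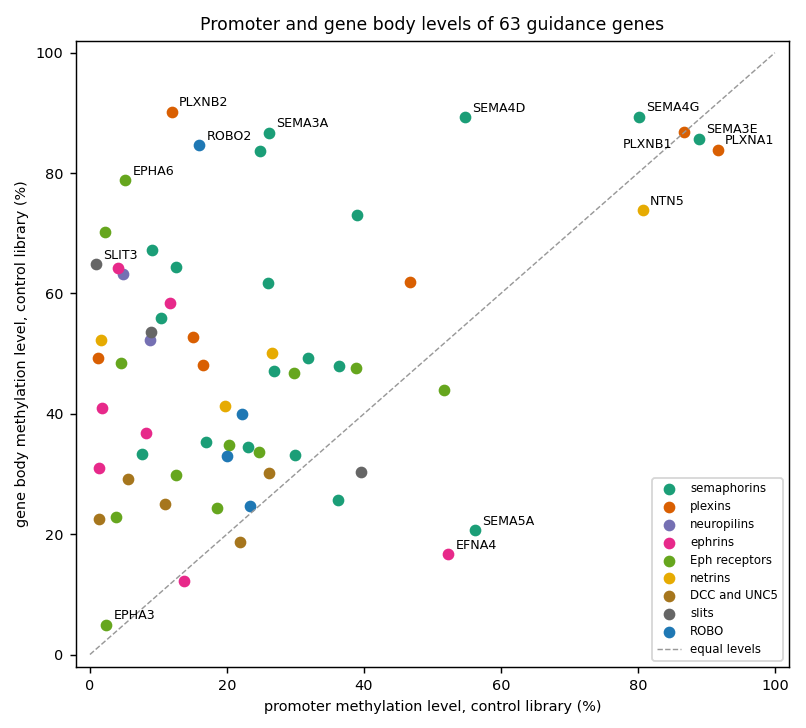
Promoter (horizontal axis) against gene body methylation (vertical axis), both in percent in the control library, for 63 guidance genes coloured by family; the dashed line marks equal levels. Of the 63 points 53 lie above the line, and PLXNB2, ROBO2 and EPHA6 combine a low promoter with a body above 78%.

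The differences between the Mdivi-1 and the control library were small beside this range. Promoters differed by a median of 0.11 points (Mdivi-1 minus control), with 34 higher and 29 lower, beside a median of 0.20 and 58.3% higher over all promoters. In 39 genes the promoter difference was under 1 point in size, in 12 it was from 1 to under 3 points and in 12 it was 3 points or more. Gene bodies differed by a median of 0.41 points, with 44 higher and 21 lower, beside 0.43 and 66.8% higher over all bodies. No promoter and no body of the set passed the size criterion for regions, at least 5 CpGs, a difference of 10 points or more and 80% of CpGs in that direction. Over all autosomal genes 0.243% of promoters and 0.137% of bodies passed it. Correlations between the libraries were 0.997 over the 63 promoters and 0.998 over the 65 bodies, and no promoter moved by more than 6 places in the order of levels.

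The 6 promoters with the largest differences were spread over semaphorins, plexins, a netrin and an Eph receptor. The 17 CpGs of PLXNB1 averaged 86.7% in the control library against 81.4% in the Mdivi-1 library; 13 were lower there. Its difference of -5.32 points had a counting error of 2.11 for independent CpGs and 6.47 for fully shared reads, and was -3.51 at 20 reads. NTN5, at 80.7% and 86.0% over 17 CpGs, differed by 5.25 points with errors of 2.46 and 10.6, and by 0.96 points where only CpGs with at least 20 reads were used. PLXND1, the receptor of SEMA3E in vessels and axons, differed by 4.98 points (46.7% and 51.7%, 12 CpGs, errors 3.06 and 12.2), and by 2.17 points at 20 reads. SEMA4D, the ligand of PLXNB1, differed by 4.29 points (54.8% and 59.1%, 11 CpGs, errors 2.99 and 12), and by 8.03 points with reads pooled over CpGs. PLXNB2 was at 11.9% and 7.99% over 16 CpGs, of which 5 were higher and 6 lower, a difference of -3.95 points with errors of 1.87 and 7.40. That difference shrank to 0.0052 points at 20 reads. Among the CpGs left out there is the one at chr22:50746887, with -55.6 points at 17 control and 20 Mdivi-1 reads. EPHA8 differed by -3.93 points (51.7% and 47.8%, 26 CpGs, errors 1.70 and 10.6). Of all 63 promoters, 9 (14.3%) differed beyond the 95% counting interval for independent CpGs, beside 11.6% of the promoters of all genes. The interval for shared reads was passed by 0 of them and by 0% of all promoters, so it separated no gene from another.

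By family, all 4 netrin promoters were higher in the Mdivi-1 library, by 0.19 to 5.25 points, and 6 of 7 ephrin promoters were lower, by 0.16 to 0.99 points. EFNA2 was the ephrin promoter that was higher, by 0.50 points. Neither split held in full under other treatments of the reads: at a minimum of 20 reads 2 of 4 netrin promoters were higher, and with the control fractions as deposited 3 of 7 ephrin promoters were lower. The semaphorins divided into 11 higher and 8 lower, the Eph receptors into 6 and 6 (10 and 2 with reads pooled over CpGs), and the plexins into 3 and 4.

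Among gene bodies, SEMA3G, which encodes a secreted semaphorin, had the largest difference, 19 CpGs at 83.6% and, in the Mdivi-1 library, 87.8%. That is 4.13 points, with counting errors of 1.78 and 8.26. DCC, the netrin receptor, followed with 24.9% and 28.4% over 80 CpGs, of which 49 were higher and 23 lower, a difference of 3.5 points with errors of 0.947 and 9.94. SEMA4G differed by 2.98 points (89.4% and 92.4%), NTN5 by 2.75 (73.8% and 76.6%), SEMA7A by 2.73 (25.7% and 28.4%) and EPHA1 by 2.53 (47.6% and 50.1%). With pooled reads the NTN5 body difference was -3.42 points, and the SEMA7A body difference at 20 reads was 0.52 points. UNC5D had the lowest, at -2.48 points. Of the 65 bodies, 23 (35.4%) differed beyond the 95% counting interval for independent CpGs, beside 17.5% of the bodies of all genes. The interval for shared reads was passed by 0 of them and by 0% of all bodies. CpGs far apart in a body cannot share reads, so that interval is too wide to separate genes. The interval for independent CpGs narrows as CpGs are added, and the guidance bodies had a median of 164 CpGs beside 48 over all bodies. The part of this in the higher share was not tested. The Mdivi-1 library was the deeper one in 60 of 63 promoters and 64 of 65 bodies, and the part of depth in these differences was not tested.

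**Figure D4:**
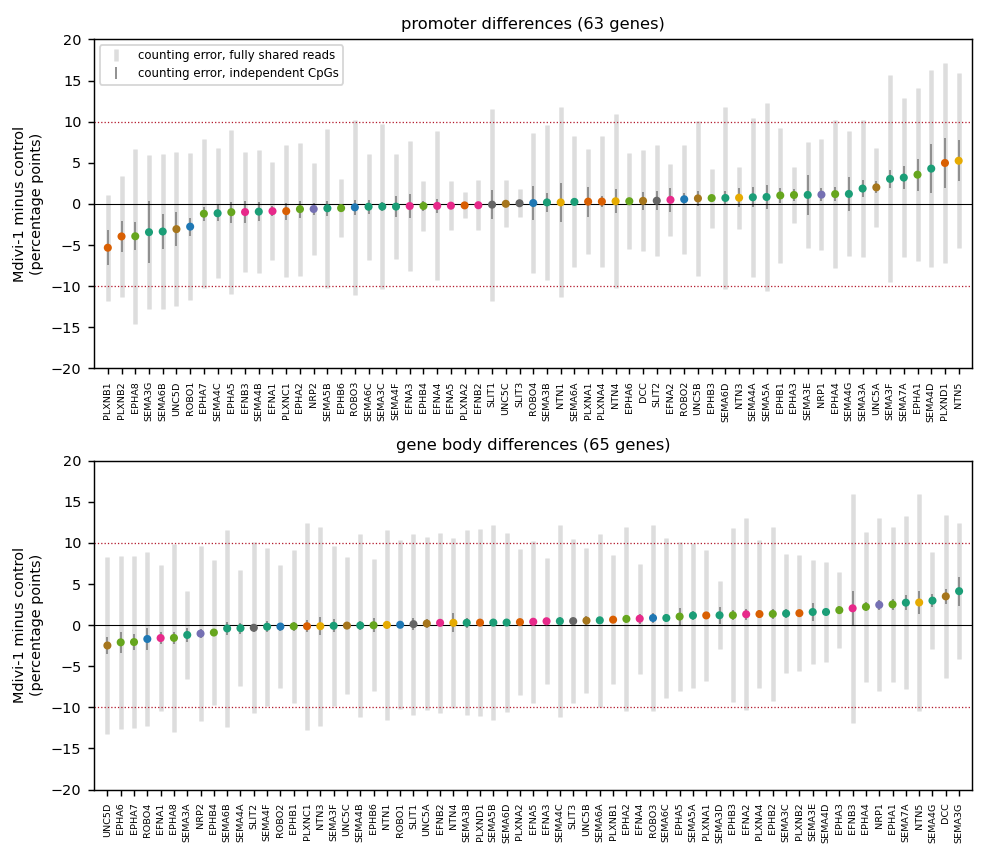
Differences in methylation (Mdivi-1 minus control, percentage points) of 63 promoters (top) and 65 gene bodies (bottom) in rising order, coloured by family; thin dark bars are 1 counting error for independent CpGs, wide light bars 1 counting error for fully shared reads, and dotted red lines mark 10 points. No gene reaches the dotted lines, and the ends are PLXNB1 at -5.32 and NTN5 at 5.25 points for promoters and UNC5D at -2.48 and SEMA3G at 4.13 points for bodies.

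Within gene bodies, fixed 1 kb windows with at least 5 CpGs were held to the same size criterion. Of 565 windows in the guidance genes 10 passed (1.77%), 8 higher and 2 lower in the Mdivi-1 library, beside 0.888% of 87372 windows over all autosomal genes. They lay in 9 genes, each rested on 5 to 7 CpGs, and 3 of them had no CpG with 20 or more reads in both libraries. The largest was in SEMA7A at hg19 chr15:74704323-74704491, where 5 CpGs averaged 16.2% in the control library and 37.1% in the Mdivi-1 library. All 5 were higher, with 10 to 19 reads a CpG in either library, and all 5 are also annotated as a promoter of the microRNA gene MIR6881. EPHA8 had a window of 5 CpGs in its 3′ UTR, chr1:22929003-22929155, at 48.5% and 27.9%, lower at every CpG. PLXND1 had 7 intronic CpGs at chr3:129309110-129309410 with 69.9% and 85.8%, in the annotated promoter of RN7SL752P. PLXNA4, a semaphorin receptor, had 7 intronic CpGs within 72 bp at chr7:132300085-132300156 with 38.2% and 54.1%, all higher. The counting errors of the PLXNA4 difference of 15.9 points were 5.76 for independent CpGs and 15.9 for shared reads.

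The other windows were in introns, 1 of them reaching into an exon. SLIT1 stood at 26.5% and 40.2%, EPHB2 at 54.5% and 66.8%, and UNC5B had a pair of windows, at 15.1% and 26.1% and at 68.5% and 79.0%. The first UNC5B difference of 11.0 points was 3.3 when the deeper library was thinned to equal reads, and the second, of 10.4 points, was 5.17 with pooled reads. The second UNC5B window is in the promoter of its antisense gene UNC5B-AS1. The ROBO4 window was at 18.1% and 6.76%, a difference of -11.3 points that was -7.75 with pooled reads. The SEMA5B window, 5 CpGs at chr3:122740544-122740611 with 40.3% and 51.8%, was the only one with at least 20 reads at every CpG in both libraries. Its difference of 11.5 points had counting errors of 4.72 and 10.6. None of the 10 windows differed beyond the 95% counting interval for shared reads, an interval that no promoter or body of any autosomal gene passed. At the other end of the scale, 71 windows with 1741 CpGs in 39 guidance genes were under 5% in both libraries, which is 12.6% of the guidance windows beside 19.9% of the windows of all genes.

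**Figure D5:**
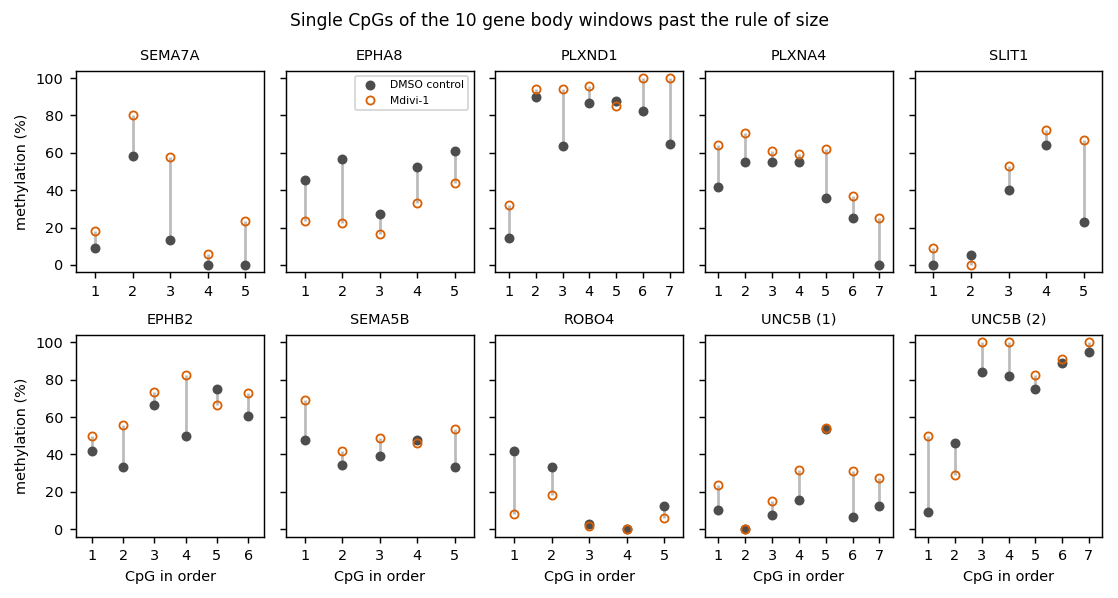
Methylation (vertical axis, percent) at each CpG (horizontal axis, in order along the chromosome) of the 10 gene body windows past the size criterion; filled grey points are the control library, open orange points the Mdivi-1 library, joined by a line. The EPHA8 window is lower in the Mdivi-1 library at all 5 CpGs and the PLXNA4 window higher at all 7, with 10 to 32 reads a CpG in these windows.

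No single guidance CpG was called. Each CpG of the table was compared between the libraries by a two-sided Fisher's exact test on its reads, adjusted by Benjamini-Hochberg over 2523725 CpGs, and a call needed an adjusted p below 0.05 and a gap of 20 points or more. Of all CpGs tested, 16 (6.34e-04%) were called, and among the 13504 guidance CpGs 0. At an unadjusted p under 0.05 there were 288 guidance CpGs (2.13%), beside 2.02% of the table. The smallest p, 0.000317, belonged to an exonic CpG of PLXNA2 at chr1:208257881. There 40 of 80 reads were methylated in the control library (50%, 95% Wilson interval 39.3% to 60.7%) and 81 of 106 in the Mdivi-1 library (76.4%, 67.5% to 83.5%). Its adjusted p by Benjamini-Hochberg was 1. The next were an intronic CpG of SEMA4C, with 45 of 67 and 78 of 86 reads, and an exonic CpG of PLXND1, with 30 of 31 and 33 of 52 reads. Among promoter CpGs, PLXNB2 had the smallest p, 0.000875, at chr22:50746887. That CpG was methylated in 12 of 17 control reads (70.6%, interval 46.9% to 86.7%) and 3 of 20 Mdivi-1 reads (15%, 5.24% to 36.0%), again with an adjusted p of 1. These intervals cover counting error only, since reads without molecular identifiers may be copies of the same molecule.

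Other genes of the pathway were read from fixed lists. Of 24 further cues and co-receptors, among them the repulsive guidance molecules, contactins, FLRT proteins, SHH and CXCL12, 23 had a measured promoter. Their control median was 27.3%, and 14 were higher and 9 lower in the Mdivi-1 library, with a median difference of 0.36 points. MET, the receptor of hepatocyte growth factor, had the largest of these differences, -5.78 points from 41.3% to 35.5%. Of 43 intracellular effectors, such as the collapsin response mediator proteins, MICAL proteins and slit-ROBO GTPase-activating proteins, 41 promoters were measured. Their control median was 23.2%, with 19 higher and 22 lower and a median difference of -0.11 points. ENAH, an actin regulator at the growing axon tip, had the largest, -8.24 points from 39.2% to 31.0% over 52 CpGs. It is larger than any promoter difference of the 63 guidance genes. Differences of 5 points or more were found in 1 of the 41 effector promoters (2.44%) and 1 of the 23 further cues (4.35%), beside 3.88% of all promoters. Counting errors and other read minimums are not given for these lists. The bodies of the effectors were higher in 34 of 43 genes and those of the further cues in 17 of 24, with medians of 0.60 and 0.55 points. No promoter or body of either list passed the size criterion.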

How the data were processed

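Genomic DNA of SH-SY5Y cells, 1 library for each group, was captured with the SureSelectXT Methyl-Seq kit and sequenced on an Illumina NovaSeq, per the labels' protocols. Reads were aligned to hg19 with BSMAP, per the submitters' processing notes, which give no version. The authors deposited, for each CpG, a methylation level as a fraction of reads and a coverage, which is an estimated count of informative reads and is fractional at few positions, with annotation of promoters, genes and CpG islands. The deposited control fractions gave whole methylated reads at 33.3% of positions (tolerance 1e-06) and the Mdivi-1 fractions at 100%. A rescaling of the control coverage by the ratio of the median coverages, 37 to 30, read from the values and stated in no source used here, gave whole reads for the rest; 10763 of 2773807 positions (0.388%) were left out. From these reads the levels were computed as unweighted means over CpGs covered by 10 or more reads in each library. Counting errors are binomial, for independent CpGs and for CpGs that share all reads, the latter taken at the mean level of the region. The labels do not say how many cultures lie behind a library.

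Fisher's exact test with Benjamini-Hochberg adjustment was run over all CpGs and was compared with the SciPy versions on a subset of them. The recovery of reads and the size criterion were tested on simulated data. Promoter and island classes are those of the authors' annotation. Named in full are the 6 promoters and 6 bodies of largest difference, the highest and lowest promoter of each family and each window past the size criterion (at least 5 CpGs, 10 points, 80% of CpGs one way); further genes named were chosen after their values were seen. The members and lists were chosen with earlier results of these data known. The split of promoters at 2 kb and the placing of CpGs on RefSeq windows (at least 7 CpGs matched by spacing, or 5 or 6 that are at least 50% of its CGs) were chosen after the data were seen. Computations used SciPy 1.17.1, Numba 0.67.0, pandas 2.3.3 and NumPy 2.4.6 under Python 3.11.15. Alternatives varied the read minimum, pooling, depth, CpG minimum, thresholds and annotation classes.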

Additional observations from a re-analysis of the deposited data

How the results depend on the processing

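The counts of 0 called CpGs and 0 promoters past the size criterion, and promoters below bodies in 9 of 9 families, held under every alternative run for them. The median promoter difference of 0.11 points ranged from -0.029 to 0.38 over the alternatives, and its sign turned, to -0.029 points, when the deeper library was thinned to equal reads; the cause was not tested. The median body difference of 0.41 points ranged from 0.29 to 0.63 and was 0.63 for CpGs outside islands. The 10 windows past the criterion became 4 at a minimum of 20 reads, of which 1 was among the 10, 0 with at least 10 CpGs and 4 at 15 points. Among the results for families and genes, 108 changed by less than 5 points (family levels) or stayed within their 95% counting interval (genes and windows). A further 7 moved beyond this, all but 1 of them at a minimum of 20 reads. The shifts of PLXNB2, NTN5 and SEMA7A are given beside their values above. The alternatives reuse the same reads, so this bound is loose: the NTN5 promoter shift from 5.25 to 0.96 points counted as within it. Of the 10 windows only that of SEMA5B kept enough CpGs at 20 reads to be counted there. With pooled reads the sign differed in 19 of 63 promoters and 19 of 65 bodies. No paired analysis was possible because each group has 1 library, and for the same reason no library could be left out. Depth and the number of tests limit single CpGs: the PLXNB2 promoter CpG, at 17 and 20 reads, had an adjusted p of 1 by Fisher's exact test with a difference of -55.6 points.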
